A study of Homo sapiens with 42 samples.

Results

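The effect of end repair on the small RNA of THP-1 A4 was measured as the difference between 3 libraries made with polynucleotide kinase (plus PNK) and 3 libraries made without it (minus PNK). These 6 libraries were taken by their titles, out of 30 libraries with counts and 42 samples in the labels of the series. THP-1 is a human monocytic leukaemia cell line. A4 is a group of THP-1 cells that the sample titles set beside A7, E4 and G8, in a series on the knockout of POLR3G and POLR3GL, alternative subunits of RNA polymerase III. The labels used here do not say which gene was targeted in A4 or whether A4 is 1 clone. What the 6 libraries share is the line, kept between passage 10 and 15, a like stated input of cells, and enrichment of small RNA with the mirVana PARIS kit. In the plus PNK arm the RNA was incubated with Antarctic phosphatase and PNK before the NEBNext Small RNA library was built, and in the minus PNK arm it was not. Nothing in the labels says that the 3 libraries of an arm came from separate cultures, so each p-value reflects how far these libraries spread, and that spread may be technical.

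Small RNA kits of this type join adapters to a 5′ monophosphate and a 3′ hydroxyl. MicroRNAs (miRNAs) leave the enzyme Dicer with both, and C/D box snoRNAs are trimmed to similar ends, whereas RNA cut by hydrolysis or by many ribonucleases carries a 5′ hydroxyl and a 3′ phosphate or cyclic phosphate, and primary transcripts of RNA polymerase III start with a triphosphate. Phosphatase followed by PNK leaves a 5′ monophosphate and a 3′ hydroxyl on such molecules. The comparison asks which RNAs take a larger or smaller part of the library once the ends have been treated.

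The deposited values are raw read counts per annotated row on GRCh38. Rows overlap and a read is counted in each row it touches, so a set of 85913 rows without overlap was taken from the 175946 rows, short structured RNAs first. They held 6612389 to 9063119 counts in the plus PNK libraries and 10964737 to 13550440 in the minus PNK libraries. Shares below are percent of that total, CPM is the count scaled to a total of 1000000, and a log2 change is the plus over minus change in share from edgeR's quasi-likelihood fit, with Benjamini-Hochberg adjusted p-values and a threshold of 0.05. A share cannot tell a gain of 1 RNA class from a loss of the rest, nor fewer molecules from fewer that could be ligated, and in bulk RNA fewer cells of a kind and less RNA per cell cannot be told apart. Minus PNK library 3 stood apart from the other minus PNK libraries, with chi-square values per feature of 835 and 823 against them and of 30.4 between those, while the plus PNK pairs gave 23 to 82.9. It was low in 5S and 5.8S rRNA, H/ACA snoRNA and scaRNA. Plus PNK library 3 was also the lowest of its arm in 5S rRNA, H/ACA snoRNA and scaRNA, but not in 5.8S rRNA. Plus PNK library 2 was high in 7SL, RMRP and initiator tRNA.

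Most reads were C/D snoRNA and miRNA without PNK, while rRNA, tRNA and rows outside the named families made up most reads with it. C/D box snoRNA, the guides of ribose methylation, took 12.8 ± 2.44% of the plus PNK libraries and 70.7 ± 1.99% of the minus PNK libraries (SD, n = 3 each). MiRNA took 0.523 ± 0.107% with PNK and 14.0 ± 1.63% without it. The 18S, 28S and 5.8S rRNAs took 44.2 ± 2.08% with PNK and 9.45 ± 2.45% without it, and rows outside the named families 19.3 ± 0.604% with PNK and 0.719 ± 0.121% without it. Of 24 families, 20 passed the test (83.3%): 16 were higher with PNK (66.7%) and 4 lower (16.7%).

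More features were seen with PNK. A count was found in 25389, 24139 and 22273 features of the plus PNK libraries and in 9074, 8440 and 8563 features of the minus PNK libraries. Thinned to 6612389 counts each, the expected numbers were 23341, 24036 and 22273 with PNK and 6380, 6577 and 6658 without it, so the arms did not overlap at equal depth. Of 6985 features tested, 6731 passed the test (96.4%), and 6045 were higher with PNK (86.5%) and 686 lower (9.82%), and the median log2 change was 5.71. These percentages are the background for every count of members below. The 3 plus PNK libraries all lay above the 3 minus PNK libraries in 86.2% of features and all below in 9.35%.

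**Figure D1:**
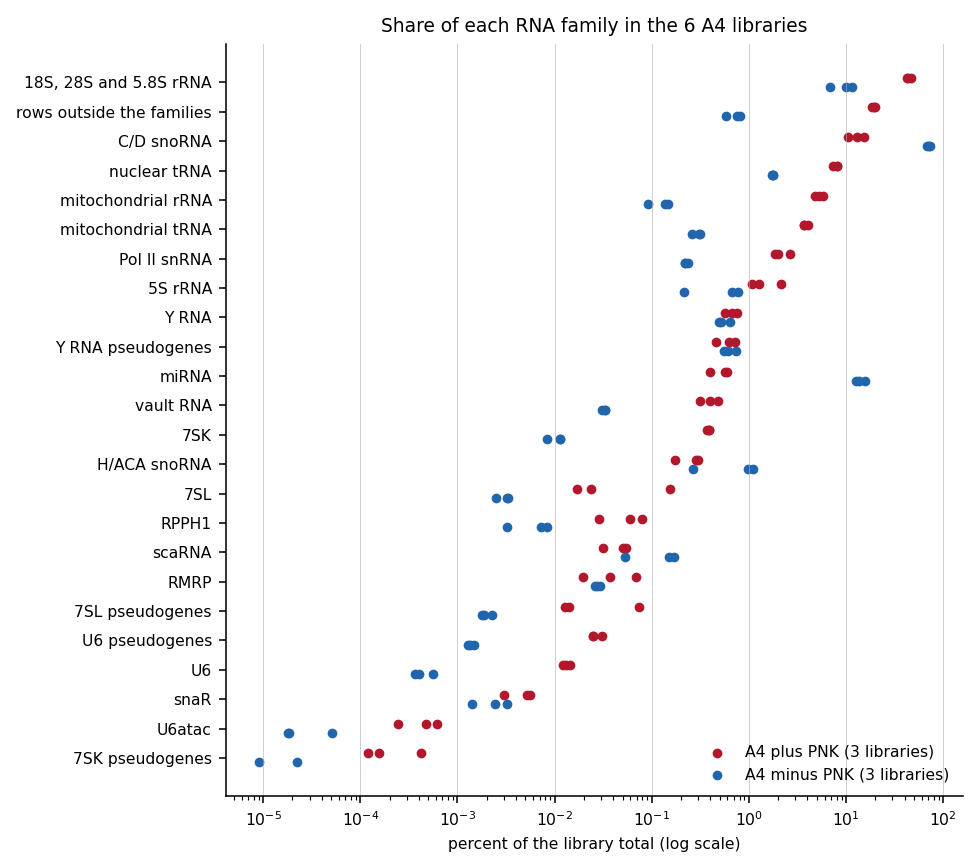
Share of each RNA family in percent of the library total (x axis, log scale) in the 3 A4 plus PNK and 3 A4 minus PNK libraries, 1 point per library; a library at 0 is not drawn (7SK pseudogenes, minus PNK library 2). C/D snoRNA and miRNA lie lower with PNK and most other families higher, while Y RNA, Y RNA pseudogenes, RMRP, snaR, H/ACA snoRNA and scaRNA overlap between the arms.

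How a family is said to move depends on what is held constant. With TMM factors the median log2 change over all features was 2.72, a shift of -2.99 against library totals, and with factors that hold miRNA constant it was 10.38, a shift of 4.66. With DESeq2 size factors it was 3.41, a shift of -2.30. Under TMM 6 families were higher with PNK (25%) and 11 lower (45.8%), and under miRNA factors 23 passed, all of them higher (95.8%). Among features, 87.1% passed under TMM, 70.1% higher and 17.0% lower. DESeq2 size factors gave 78.4% higher and 15.6% lower. Under miRNA factors 96.7% passed, 95.9% higher and 0.859% lower. Of the called features, 89.8% were higher with PNK by library totals, 80.4% by TMM and 99.1% by miRNA factors.

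**Figure D2:**
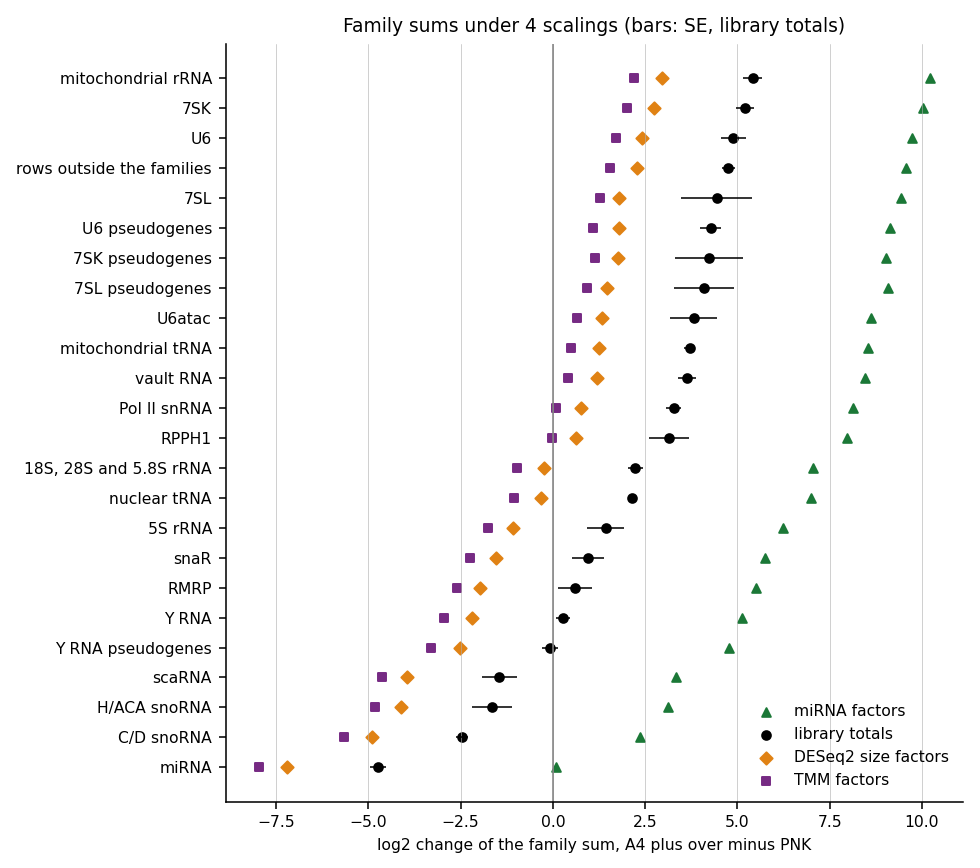
Log2 change of each family sum, A4 plus over minus PNK (x axis), under library totals (black, with SE), TMM, DESeq2 size factors and factors that hold miRNA constant. All points of 1 scaling are displaced together: 18S, 28S and 5.8S rRNA, nuclear tRNA and 5S rRNA lie above 0 by library totals and below 0 by TMM, and C/D snoRNA lies below 0 by library totals and above 0 by miRNA factors.

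MiRNAs are short guides of the silencing complex. Their summed share was 0.599%, 0.400% and 0.569% in the plus PNK libraries, against 12.6%, 13.5% and 15.8% in the minus PNK libraries. No library of an arm reached the other arm. The plus PNK mean was 26.7-fold lower, a log2 change of -4.74 (SE 0.217, edgeR adjusted p = 1.49e-06), and the change was -7.96 under TMM. Of 289 miRNA rows tested, 246 were lower with PNK and 41 higher, with a median of -4.76. A row is named by its gene and holds the reads of its hairpin. MIR92A1 and MIR92A2, like the copies of let-7, share reads.

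To show what the most abundant miRNA rows stand for, the mature sequence of 1 arm of MIR148A, MIR92A1 and MIR30E is given with the seed, bases 2 to 8, in capitals, as in RefSeq for GRCh38.p14. A row can hold the reads of a whole hairpin, so its counts do not tell which arm they came from. The sequences lie at chr7:25949922-25949943, minus strand, chr13:91351361-91351382, plus strand, and chr1:40754371-40754392, plus strand.
hsa-miR-148a-3p: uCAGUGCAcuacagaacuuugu
hsa-miR-92a-3p: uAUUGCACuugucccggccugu
hsa-miR-30e-5p: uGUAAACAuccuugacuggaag

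MIR148A had 269, 171 and 312 CPM in the plus PNK libraries, against 8886, 10199 and 18058 CPM in the minus PNK libraries. Its log2 change was -5.63 (SE 0.408, edgeR adjusted p = 8.8e-11). MIR92A1, of the miR-17-92 cluster, had 572, 363 and 512 CPM with PNK, against 9339, 9568 and 9754 CPM without it. All 3 plus PNK values of each gene lay below all 3 minus PNK values, and the size of the fall was not uniform: MIR92A1 fell 19.8-fold, MIR148A 49.4-fold and MIR30E 64.2-fold. Among abundant rows the largest falls that the naming rule picked were those of MIR15B, at -6.81, and MIR27B, at -6.64.

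The let-7 family, which acts in developmental timing, had 12 rows tested and 12 lower with PNK, with a median of -4.77. Its summed level was 651 to 1237 CPM with PNK and 32448 to 35271 CPM without it. The next sequences share 1 seed and show how alike the mature members are. They lie at chr3:52268336-52268357, minus strand, and chr12:62603691-62603712, plus strand.
hsa-let-7g-5p: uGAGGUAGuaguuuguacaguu
hsa-let-7i-5p: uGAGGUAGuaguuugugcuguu

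MIRLET7G had 110, 59.6 and 58.1 CPM with PNK, against 5884, 6290 and 6344 CPM without it, a log2 change of -6.34 (SE 0.394, edgeR adjusted p = 2.94e-11). MIRLET7A3 had 16.6, 10.6 and 24.7 CPM with PNK, against 77.8, 78.5 and 76.98 CPM without it, a change of -2.17. These genes mark the ends of the family's range, and the arms overlapped in neither. The miR-17-92 cluster and its paralogs, which are linked to proliferation, had 14 of 14 tested rows lower, with a median of -5.29, from -2.48 for MIR19B1 to -6.41 for MIR363.

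The labelled cell type was checked on marker miRNAs. MIR142 and MIR223, which are found in blood cells, had 21.9 to 33.7 and 10.2 to 11.9 CPM in the plus PNK libraries, against 1530 to 2433 and 258 to 330 CPM in the minus PNK libraries. The blood and monocyte markers summed to 127 to 235 CPM with PNK and 5369 to 7420 CPM without it, with 5 of 6 rows tested. Epithelial markers summed to 0.605 to 1.10 CPM with PNK and 19.8 to 26.2 CPM without it, with MIR205 at 0 throughout. Fibroblast and muscle markers summed to 0.605 to 0.993 CPM with PNK and 52.9 to 65.6 CPM without it, and erythroid markers to 0 CPM with PNK and 0.664 to 1.99 CPM without it. The 19 tested markers of these lists and of monocyte to macrophage maturation were all lower with PNK.
hsa-miR-142-3p: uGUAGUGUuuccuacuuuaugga

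The 41 rows annotated as miRNA that were higher with PNK are described apart from the rest. MIR1973 (copy 6, chr5:80650119-80650137) had 174, 113 and 172 CPM with PNK, against 0.738, 1.00 and 0.363 CPM without it, and MIR4485 a log2 change of 7.26. MIR3654 had 24.9, 25.5 and 20.3 CPM with PNK, against 0, 0.0912 and 0.0907 CPM without it. The annotated mature sequence was looked for on the sense strand of other transcripts. Of the 41 higher rows, 35 had a sequence, and 19 of these (54.3%) occurred in a protein-coding or mitochondrial transcript, 4 of them in mitochondrial rRNA or tRNA. Of the 246 lower rows, 231 had a sequence, of which 18 (7.79%) occurred in such a transcript and 0 in a mitochondrial one. Copies of 1 gene count as separate rows here. Counted once per gene symbol, 15 of 31 higher ones and 18 of 229 lower ones with a sequence occurred in such a transcript. This is a description with no test. The mitochondrial matches were MIR4485, MIR12136 and copies of MIR1973. Sequences of MIR1973 and MIR4485 are shown, annotated at chr4:116299750-116299768 and chr11:10508277-10508296, because they were also found in mitochondrial rRNA or tRNA.
hsa-miR-1973: aCCGUGCAaagguagcaua
hsa-miR-4485-3p: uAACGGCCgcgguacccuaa

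C/D box snoRNAs are excised from introns of host genes and carry a C box and a D box near their ends. They held 12.97%, 10.4% and 15.2% of the plus PNK libraries, against 71.1%, 68.6% and 72.5% of the minus PNK libraries. The arms stood far apart, with a fall of 5.51-fold, a log2 change of -2.46 (SE 0.154, edgeR adjusted p = 5.42e-06) and -5.67 under TMM, and a reversed change of 2.37 under miRNA factors. Of 224 members tested, 191 were lower with PNK and 16 higher, with a median of -2.26. Within a library, the ratio of miRNA to C/D snoRNA showed no overlap either, and with PNK it dropped by 2.277 on the log2 scale (exact two-sided permutation p = 0.1, the smallest that 3 against 3 libraries allow).

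SNORD44, a GAS5-hosted guide, had 15196, 12231 and 20374 CPM in the plus PNK libraries, against 63885, 62401 and 90825 CPM in the minus PNK libraries. Its log2 change was -2.18 (SE 0.326, edgeR adjusted p = 1.63e-06). SNORD49A had 12809, 10207 and 18926 CPM with PNK, against 50487, 51633 and 87569 CPM without it. The 3 plus PNK libraries of each lay below the 3 minus PNK libraries, and the minus PNK values were highest in library 3. Of the 10 GAS5-hosted snoRNAs 9 were lower with PNK, with a median of -2.51, and SNORD74 fell most in this set, by 3.48 on the log2 scale. SNORD77 had 1.54, 2.83 and 2.27 CPM with PNK, against 3.69, 4.10 and 2.90 CPM without it, and did not pass the test (edgeR adjusted p = 0.0672).

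Of the 8 SNHG1-hosted snoRNAs 7 were lower with PNK and 1 higher. SNORD22 had 158, 129 and 128 CPM in the plus PNK libraries, against 41.5, 30.6 and 11.97 CPM in the minus PNK libraries, a log2 change of 2.31 (SE 0.396, edgeR adjusted p = 1.06e-05) that became -0.90 under TMM. SNORD26, of the same host, had 4826, 3626 and 3809 CPM with PNK, against 32751, 30582 and 23873 CPM without it. The pair thus moved in opposite directions relative to the library total although both come from introns of 1 host transcript. Of the C/D members U3, U8 and U13, which are not methylation guides, 6 of 7 rows were higher with PNK by library totals. This is 85.7%, near the 86.5% of all features. Their median was 1.54, below the median of 5.71 over all features, and under TMM 0 were higher and 6 lower. Copies of U3 share reads, so their split is uncertain. SNORD118 (U8) had 223, 183 and 261 CPM with PNK, against 67.1, 68.7 and 92.9 CPM without it, a change of 1.54 (SE 0.320, edgeR adjusted p = 0.000106). SNORD3A (U3) had 433, 1028 and 101 CPM with PNK, against 211, 230 and 32.0 CPM without it, so its arms overlapped. SNORD13 (U13) had 215, 350 and 143 CPM with PNK, against 904, 867 and 382 CPM without it, a change of -1.60.

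Sequences of an abundant guide that fell, SNORD49A, and of the higher members SNORD22 and SNORD118 are given from GENCODE v29 on GRCh38, with a C box TGATGA and a D box CTGA in capitals where they were found on the transcript strand. They lie at chr17:16440036-16440106, plus strand, chr11:62852910-62853035, minus strand, and chr17:8173454-8173587, minus strand. SNORD49A is 71 bases long, and the higher members are 126 and 134 bases long.
SNORD49A: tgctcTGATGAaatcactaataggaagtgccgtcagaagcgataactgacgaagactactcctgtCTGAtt
SNORD22: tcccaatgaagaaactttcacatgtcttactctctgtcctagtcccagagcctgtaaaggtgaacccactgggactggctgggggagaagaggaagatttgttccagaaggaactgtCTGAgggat
SNORD118: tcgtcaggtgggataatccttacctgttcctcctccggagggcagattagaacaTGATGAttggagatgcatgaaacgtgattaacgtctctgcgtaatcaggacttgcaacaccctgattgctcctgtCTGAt

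Both boxes, TGATGA anywhere and CTGA in the last 15 bases, were found in 134 of the 183 tested C/D snoRNAs with a sequence (73.2%) and in 5 of the 8 higher members with a sequence (62.5%). Across the 224 members the log2 change and the length of the row had a Spearman rho of 0.25, as a description across rows that share libraries. The C/D members with the largest rises were copies of SNORD141A, with 101.6 to 129.8 CPM with PNK and 0.272 to 0.664 CPM without it for copy 2, a change of 7.96.

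H/ACA snoRNAs guide pseudouridylation and end in an ACA trinucleotide. As a family they had 0.296%, 0.286% and 0.174% with PNK, against 1.10%, 0.986% and 0.263% without it, so plus PNK libraries 1 and 2 exceeded minus PNK library 3. Plus PNK library 3 was the lowest of its arm too. For each replicate number the plus PNK library lay below the minus PNK library. The log2 change was -1.64 (SE 0.542, edgeR adjusted p = 0.0267), with -4.83 under TMM and 3.13 under miRNA factors. The call was lost without 1 library for some of them, with adjusted p up to 0.0840, and with every deposited row, at -0.21 (adjusted p = 0.767). That last setting also moved C/D snoRNA, from -2.46 to -1.06. Without library 3 in both arms the H/ACA change was -1.84 with adjusted p = 0.000287. With the replicate number as a block it was -1.43 (edgeR adjusted p = 0.00623). The members were spread to both sides: 39 of 102 were higher, 32 lower and 31 did not pass, with a median of -0.09 beside a sum that fell, while under TMM 6 were higher and 83 lower.

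SNORA18 had 463, 338 and 180 CPM with PNK, against 2823, 2746 and 700 CPM without it, a change of -2.68 (SE 0.450, edgeR adjusted p = 8.09e-06). SNORA80E had 196, 152 and 248 CPM with PNK, against 12.99, 14.7 and 4.90 CPM without it, a change of 4.19 (SE 0.425, edgeR adjusted p = 9.46e-09). In each gene the arms did not overlap, and minus PNK library 3 was the lowest of its arm. SNORA57 fell by 3.60 and SNORA62 rose by 3.81 on the log2 scale, the largest moves named by the rule beside SNORA80E. The sequence of SNORA80E, from GENCODE v29 at chr1:155919909-155920045, minus strand, is shown as that of the member with the largest rise the rule named, with its 3′ trinucleotide in capitals.
SNORA80E: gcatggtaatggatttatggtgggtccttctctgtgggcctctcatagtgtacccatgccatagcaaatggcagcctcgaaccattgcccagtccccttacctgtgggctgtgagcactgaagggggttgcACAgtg

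ACA, 2 to 4 bases before the 3′ end, was found in 79 of 94 tested H/ACA snoRNAs with a sequence (84.0%) and in 28 of the 34 higher ones with a sequence (82.4%). The scaRNAs, guides that act on spliceosomal RNA in Cajal bodies, had 0.0501%, 0.0541% and 0.0315% with PNK, against 0.150%, 0.168% and 0.0533% without it, so their arms overlapped too. Within each replicate number they were lower with PNK. Their log2 change was -1.45 (SE 0.477, edgeR adjusted p = 0.0267), 3.34 under miRNA factors, with adjusted p up to 0.0895 when 1 library was left out and -0.04 (adjusted p = 0.941) with every deposited row. Of 23 members 10 were lower and 4 higher. SCARNA15 fell by 4.33 and SCARNA16 rose by 2.36 by library totals, and the change of SCARNA16 was -0.84 under TMM.

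**Figure D3:**
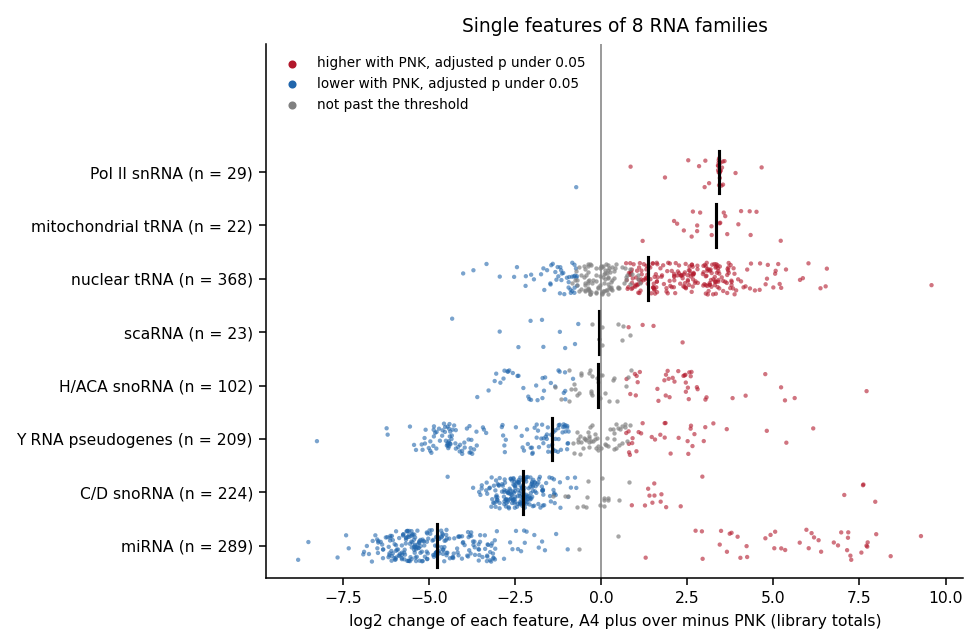
Log2 change of each tested feature, A4 plus over minus PNK by library totals (x axis), in 8 RNA families; 1 point per feature, with the family median as a vertical bar. Most miRNA and C/D snoRNA rows lie below 0 with a small set far above it, H/ACA snoRNA lie on both sides of 0, and the 22 mitochondrial tRNAs lie above 0; under TMM the median of every family is displaced to lower values.

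Ribosomal RNA is the bulk of cellular RNA, and its mature forms derive from a 45S precursor. The 18S rRNA had 12.1%, 15.9% and 12.4% of the plus PNK libraries, against 0.308%, 0.343% and 0.146% of the minus PNK libraries, a log2 change of 5.66 (SE 0.404, edgeR adjusted p = 1.53e-05). The 28S rRNA had 22.3%, 23.5% and 20.3% with PNK, against 3.36%, 3.69% and 4.64% without it, a change of 2.50 that was -0.71 under TMM. Both were separated between the arms by a wide margin. The short 5.8S rRNA had 8.80%, 7.13% and 10.2% with PNK, against 6.31%, 7.56% and 1.99% without it, and did not pass the test (0.72, SE 0.470, edgeR adjusted p = 0.193, and 0.20 without library 3 in both arms). Of 69 sums of this kind, by tRNA isotype, mitochondrial gene, rRNA gene and family, 59 passed (85.5%), 52 of them higher (75.4%) and 7 lower (10.1%). Under TMM 63.8% of these sums passed, and under miRNA factors 98.6%, all of them higher.

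The spacers of the precursor went the other way. In the 45S row RNA45SN2 at chr21:8205988-8219302, 6242 bases lie outside the mature rRNAs. They had 157, 160 and 220 CPM in the plus PNK libraries, against 692, 726 and 858 CPM in the minus PNK libraries. They made up 0.114%, 0.105% and 0.163% of the reads of the row with PNK and 2.36%, 2.14% and 3.94% without it. The arms did not overlap in either measure, in any of the 3 copies of the row, and no test was run on them. The copies share reads, so they are not separate observations. The percentage also falls when the mature rRNA reads of the row rise.

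The 5S rRNA, made by RNA polymerase III, had 1.26%, 2.13% and 1.07% with PNK, against 0.769%, 0.676% and 0.216% without it. The change of 1.43 (SE 0.510, edgeR adjusted p = 0.0346) was -1.75 under TMM, and it lost its call without plus PNK library 2 (1.07, adjusted p = 0.137) or minus PNK library 2. The arms did not overlap, and the copies of 5S share reads. Its ratio to the other rRNA overlapped between the arms (-0.70 on the log2 scale, exact two-sided permutation p = 0.2).

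Mitochondrial rRNA had the largest change of any family by library totals. It took 5.84%, 4.77% and 5.28% of the plus PNK libraries, against 0.136%, 0.147% and 0.0905% of the minus PNK libraries. This is 42.6-fold higher, a log2 change of 5.41 (SE 0.254, edgeR adjusted p = 1.49e-06) and of 2.21 under TMM. MT-RNR1 and MT-RNR2, the 12S and 16S rRNAs, both changed by 5.41. Relative to the cytosolic rRNA of the same library, mitochondrial rRNA was higher with PNK by 3.18 (exact two-sided permutation p = 0.1, no overlap).

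Mitochondrial tRNAs are cut from long polycistronic transcripts of both strands. Together they had 4.03%, 3.72% and 3.68% with PNK, against 0.303%, 0.314% and 0.258% without it, a change of 3.71 (SE 0.154, edgeR adjusted p = 1.49e-06) and of 0.50 under TMM. All 22 rose by library totals, with no overlap between the arms in any of them, whereas under TMM 6 rose and 4 fell. MT-TL2 had 6786, 7054 and 6453 CPM with PNK, against 192, 184 and 171 CPM without it, a change of 5.21 (SE 0.337, edgeR adjusted p = 3.3e-11). MT-TI had 130, 103 and 109 CPM with PNK, against 55.8, 68.3 and 24.8 CPM without it, a change of 1.20 that lost its call without plus PNK library 1 (adjusted p = 0.0555). These genes bound the range, and their sequences, from chrM:12266-12336 and chrM:4263-4331, both on the plus strand, are nearly equal in length.
MT-TL2: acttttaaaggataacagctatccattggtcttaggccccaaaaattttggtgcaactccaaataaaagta
MT-TI: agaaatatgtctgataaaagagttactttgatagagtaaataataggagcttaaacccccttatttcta

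MT-TS2, the most abundant mitochondrial tRNA in both arms with 7054 to 7619 CPM with PNK and 463 to 471 CPM without it, is the direct neighbour of MT-TL2 on the genome. Its change was 3.98, smaller than that of MT-TL2, and the difference between the genes was not tested.

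Nuclear tRNAs, transcribed by RNA polymerase III and rich in base modifications, had 8.01%, 7.31% and 8.12% with PNK, against 1.73%, 1.76% and 1.79% without it. The log2 change was 2.15 (SE 0.114, edgeR adjusted p = 2.49e-06), and -1.06 under TMM. Gene copies of an isotype share reads, so single copies are uncertain. Isotypes differed in direction: 14 were higher, 3 lower and 5 did not pass the test. Glutamate tRNA was the most abundant isotype, with 5.41%, 3.36% and 5.91% with PNK, against 0.555%, 0.550% and 0.518% without it, a change of 3.18 by library totals and of -0.04 under TMM. Aspartate, glutamine and valine tRNA changed by 3.42, 3.29 and 3.19.

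Serine tRNA moved the other way, with 0.0696%, 0.0697% and 0.0738% with PNK, against 0.170%, 0.195% and 0.253% without it. Its change was -1.54 (SE 0.193, edgeR adjusted p = 0.000233), and 3.33 under miRNA factors. The arms did not overlap, and no left-out library removed the call, but with every deposited row the change was -0.13 (edgeR adjusted p = 0.547). That setting also moved nuclear tRNA as a whole, from 2.15 to 3.55. The fall lay in 1 copy, tRNA-Ser-TGA-1-1 (chr10:67764503-67764584), with 140, 110 and 114 CPM with PNK, against 1602, 1844 and 2417 CPM without it, a change of -4.01 (SE 0.336, edgeR adjusted p = 5.85e-10). The other 26 serine rows summed to 556 to 624 CPM with PNK and 97.6 to 112 CPM without it, in the opposite direction, a split made after the values were seen and not tested. Arginine and lysine tRNA were lower by 0.80 and 0.71 on the log2 scale. Both lost their calls when certain libraries were left out, with adjusted p up to 0.0555 and 0.0836. Histidine, proline, isoleucine, asparagine and threonine tRNA did not pass the test, with changes from -0.13 to 0.54.

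Initiator methionine tRNA had 0.0357%, 0.391% and 0.0136% with PNK, against 0.00244%, 0.00287% and 0.00306% without it. The arms did not overlap, but plus PNK library 2 stood far above the rest of its arm, and the change of 5.71 (SE 1.359, edgeR adjusted p = 0.00668) was 3.14 without it. The copy tRNA-Thr-CGT-6-1 behaved alike, with 28.7, 315 and 8.92 CPM with PNK, against 0.221, 0 and 0.181 CPM without it. Elongator methionine tRNA had 0.0277%, 0.0315% and 0.0248% with PNK, against 0.00458%, 0.00467% and 0.00617% without it, a change of 2.45 with no library apart.

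**Figure D4:**
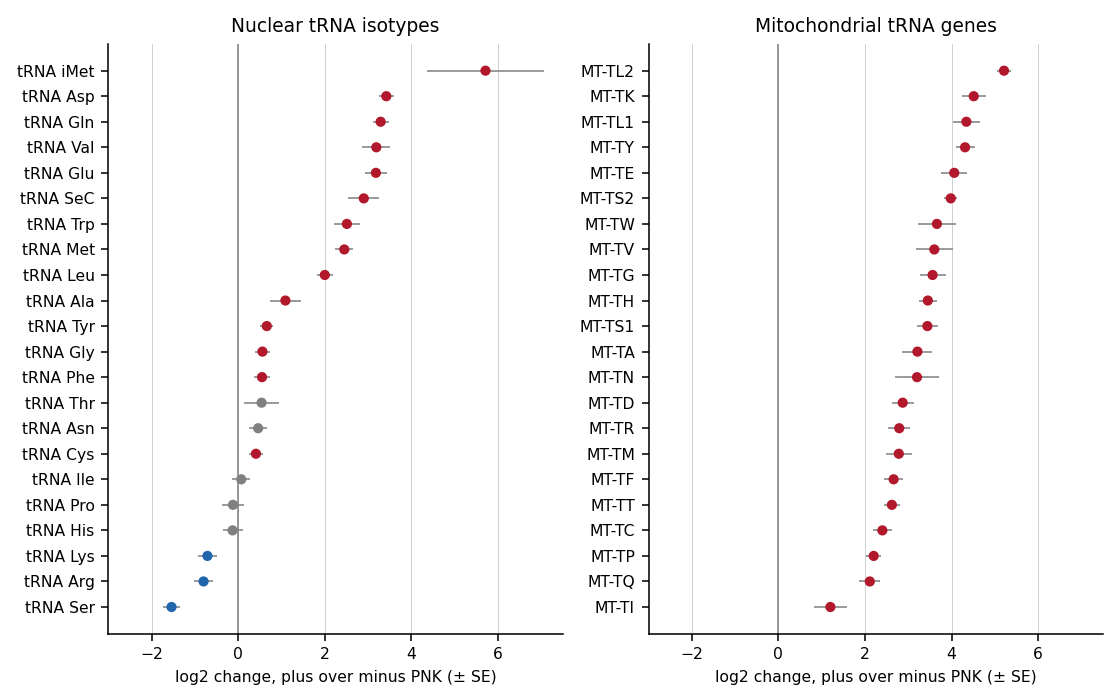
Log2 change, A4 plus over minus PNK by library totals, with SE, of each nuclear tRNA isotype (left) and mitochondrial tRNA gene (right); red is higher, blue lower and grey not past the threshold of 0.05. Nuclear isotypes range from -1.54 for serine to 5.71 for the initiator, and mitochondrial genes from 1.20 to 5.21; under TMM the values are lower throughout and several cross 0.

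Vault RNAs are short transcripts of RNA polymerase III, of which VTRNA2-1, also called nc886, binds the kinase PKR. As a family they had 0.393%, 0.314% and 0.484% with PNK, against 0.0304%, 0.0328% and 0.0333% without it, a change of 3.63 (SE 0.245, edgeR adjusted p = 7.09e-06) and of 0.42 under TMM. VTRNA2-1 had 3560, 2800 and 4321 CPM with PNK, against 151, 160 and 198 CPM without it, a change of 4.39 (SE 0.341, edgeR adjusted p = 2.16e-10). It held most of the family's counts with PNK, so the family change mainly follows this gene. VTRNA1-1 had 362, 324 and 500 CPM with PNK, against 144, 157 and 124 CPM without it, a change of 1.48 that was -1.72 under TMM. The arms of both were apart. VTRNA1-3 had 2.87, 10.4 and 2.87 CPM with PNK, against 5.46, 5.65 and 5.35 CPM without it, with no call (-0.04, edgeR adjusted p = 0.915). The paralogs that bound this range lie at chr5:136080497-136080597, minus strand, and chr5:140726158-140726246, plus strand.
VTRNA2-1: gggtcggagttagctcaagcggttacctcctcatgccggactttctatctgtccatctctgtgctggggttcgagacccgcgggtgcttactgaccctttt
VTRNA1-3: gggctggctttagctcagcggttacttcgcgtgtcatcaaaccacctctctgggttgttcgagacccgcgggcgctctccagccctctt

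Y RNAs, small RNAs of the Ro particle, changed little by library totals. The family had 0.666%, 0.566% and 0.760% with PNK, against 0.492%, 0.516% and 0.643% without it. The arms overlapped, and the change of 0.27 did not pass the test (SE 0.197, edgeR adjusted p = 0.233) by library totals, while it was -2.94 under TMM. RNY3 had 594, 516 and 653 CPM with PNK, against 387, 322 and 212 CPM without it, a change of 0.94 (SE 0.314, edgeR adjusted p = 0.0076). RNY1 had 2371, 1652 and 2448 CPM with PNK, against 2196, 2448 and 3263 CPM without it, and did not pass. RNY4 did not pass either, with 2480 to 3724 CPM with PNK and 1800 to 2526 CPM without it, and RNY5 changed by 0.70 but lost its call under 4 of the 6 left-out libraries. Within a library, the ratio of vault RNA to Y RNA was higher with PNK by 3.33 (exact two-sided permutation p = 0.1, no overlap). This ratio mainly follows VTRNA2-1, which held most of the vault RNA counts with PNK.

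The Y RNA pseudogenes, many copies that can share reads with the genes, had 0.625%, 0.458% and 0.710% with PNK, against 0.560%, 0.603% and 0.732% without it, with no call for the sum (-0.08, edgeR adjusted p = 0.734). Of 209 of their rows tested, 129 were lower and 32 higher, with a median of -1.44.

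Longer RNAs of RNA polymerase III were mostly higher with PNK by library totals. RN7SK, which holds back the elongation factor P-TEFb, had 3905, 3839 and 3710 CPM with PNK, against 113, 115 and 83.1 CPM without it, a change of 5.20 (SE 0.345, edgeR adjusted p = 3.88e-11) and of 2.00 under TMM. RPPH1, the RNA of RNase P, had 591, 789 and 285 CPM with PNK, against 71.9, 83.2 and 32.6 CPM without it, a change of 3.15 that was -0.03 under TMM. RN7SL1, of the signal recognition particle, had 105, 720 and 65.0 CPM with PNK, against 15.8, 14.9 and 12.8 CPM without it, a change of 4.36 that was 2.55 without plus PNK library 2. Its call was lost under TMM (1.20, edgeR adjusted p = 0.0753) and in the DESeq2 test (1.15, adjusted p = 0.0938). The arms were apart in all 3 genes. RMRP, which is related to RPPH1, had 367, 686 and 195 CPM with PNK, against 274, 293 and 258 CPM without it, with overlap and no call (0.60, edgeR adjusted p = 0.126).

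Spliceosomal and related RNAs of RNA polymerase II had 1.86%, 2.67% and 1.98% with PNK, against 0.235%, 0.218% and 0.220% without it, a change of 3.27 (SE 0.200, edgeR adjusted p = 5.24e-06) and of 0.08 under TMM, with 28 of 29 rows higher. RNU11 and RNU12, of the minor spliceosome, changed by 4.66 and 3.90, with 1478 to 2076 and 1668 to 2033 CPM with PNK and 66.9 to 69.96 and 113 to 133 CPM without it. RNU5B-1 changed less, by 1.85 (-1.33 under TMM). RNU7-1, which acts in histone mRNA processing, was the 1 row that was lower, with 45.6, 63.2 and 67.4 CPM with PNK, against 70.6, 83.2 and 138 CPM without it. Its change of -0.73 (edgeR adjusted p = 0.0457) was -0.39 with adjusted p = 0.263 without minus PNK library 3. The U6 genes, of RNA polymerase III, had 0.0122%, 0.0142% and 0.0131% with PNK, against 0.000369%, 0.000565% and 0.000399% without it, a change of 4.89 (SE 0.343, edgeR adjusted p = 8.08e-06). The ratio of U6 to the other spliceosomal RNA was higher with PNK by 1.66 (exact two-sided permutation p = 0.1, no overlap).

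Rows outside the families held 19.7%, 19.6% and 18.6% of the plus PNK libraries, against 0.758%, 0.815% and 0.583% of the minus PNK libraries. The change was 4.75 (SE 0.172, edgeR adjusted p = 1.27e-06) and 1.55 under TMM. Of 5626 rows tested, 5557 were higher and 30 lower, with a median of 6.14. Rows could enter this test through their counts in 1 arm alone, so the number that rose partly follows from the filter. The largest part of the share outside the families was rRNA under other annotations, which took 8.68% with PNK and 0.289% without it. Rows of long non-coding RNA took 6.04% with PNK and 0.208% without it, and those in the rDNA region of chromosome 21 another 2.77% with PNK and 0.0786% without it. Mitochondrial rows outside the rRNA and tRNA genes took 1.13% with PNK and 0.0471% without it. This division was chosen after the values were seen. The counts ignore strand, so a long row may hold reads of either strand.

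The named rows of this set show the extent. The row lnc-KCNE1B-3 (chr21:8987855-8988345) had 16201, 17559 and 20301 CPM with PNK, against 890, 1044 and 199 CPM without it. Its change was 4.66 (SE 0.482, edgeR adjusted p = 1.23e-08). It was low in minus PNK library 3, as was the sum of the rows in the rDNA region of chromosome 21, with 0.0972%, 0.113% and 0.0252% without PNK. The counts of lnc-KCNE1B-3 without PNK are close to that sum in size, so the sum may not be a separate observation. Whether the reads of lnc-KCNE1B-3 come from rRNA was not tested. The row lnc-KRBA2-1 copy 1 (chr17:8377526-8380084) had 22.5, 19.1 and 17.2 CPM with PNK and no count in the 3 minus PNK libraries, so that it was at least 236-fold higher against a floor of 3 counts over the group. The rarer fallers included lnc-FAM212B-4 (chr1:111982695-111989048), with 0.221, 0.149 and 0.151 CPM with PNK, against 9.15, 10.2 and 12.97 CPM without it, a change of -5.82. In none of them did the arms overlap.

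The change with PNK in A4 was set against the mean change in A7, E4 and G8, which have 6 libraries each, 3 with and 3 without PNK. Of 24 families 5 differed (20.8%), 3 more positive in A4 (12.5%) and 2 more negative (8.33%). Of 10512 features 44 differed (0.419%), 36 more positive in A4 (0.342%) and 8 more negative (0.0761%). MiRNA changed by -4.74 in A4 (SE 0.676), against -4.88 in A7 (SE 0.68), -4.80 in E4 (SE 0.677) and -4.79 in G8 (SE 0.677). The G8 libraries spread widely, with miRNA at 1.96% to 18.4% without PNK and 0.148% to 0.486% with it. Neither miRNA, mitochondrial rRNA nor 7SK gave a call. For families with no call, a like change in all groups is not shown. When A7 and E4 alone were the comparison, 0 families differed by edgeR at the adjusted threshold and 22 features did.

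Y RNA changed by 0.27 in A4, against 1.11 in A7, 0.81 in E4 and 1.10 in G8. The difference was -0.74 (SE 0.185, edgeR adjusted p = 0.00905), -0.71 under TMM and -0.37 under miRNA factors (adjusted p = 0.943). Without A4 minus PNK library 3 the call was lost (-0.61, adjusted p = 0.062). The level without PNK was higher in A4, at 0.492% to 0.643%, than in A7, E4 and G8, at 0.376% to 0.455%, 0.342% to 0.408% and 0.207% to 0.247%. Y RNA pseudogenes, which can share those reads, changed by -0.08 in A4, against 0.91 in A7, 0.34 in E4 and 1.64 in G8, a difference of -1.04 (SE 0.227, edgeR adjusted p = 0.00445).

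RMRP changed by 0.60 in A4, against -1.15 in A7, -0.19 in E4 and -1.01 in G8 (difference 1.38, SE 0.439, edgeR adjusted p = 0.0312). The 7SL genes changed by 4.44 in A4, against 2.69 in A7, 2.80 in E4 and 2.15 in G8 (difference 1.9, SE 0.585, edgeR adjusted p = 0.0312). Both calls were lost without A4 plus PNK library 2, with differences of 0.81 and 0.21, and without any 1 of the 3 A4 minus PNK libraries, with edgeR adjusted p of 0.0636 to 0.0879. With the replicate number as a block the 7SL difference was 1.14 and its call was lost (edgeR adjusted p = 0.202). Among features, tRNA-Val-CAC-7-1 (chr6:27728548-27728620) had 160, 855 and 31.2 CPM in A4 with PNK and 10.9, 12.6 and 13.7 CPM in A4 without it. In A7 it had 62.5, 78.7 and 32.9 CPM with PNK and 22.1, 25.1 and 20.7 CPM without it, in E4 38.0, 22.6 and 32.5 CPM with PNK and 31.9, 38.4 and 30.8 CPM without it, and in G8 14.1, 3.82 and 2.46 CPM with PNK and 29.7, 20.9 and 18.2 CPM without it. The number of features called was 1 without A4 plus PNK library 2 and 3 without A4 minus PNK library 1.

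**Figure D5:**
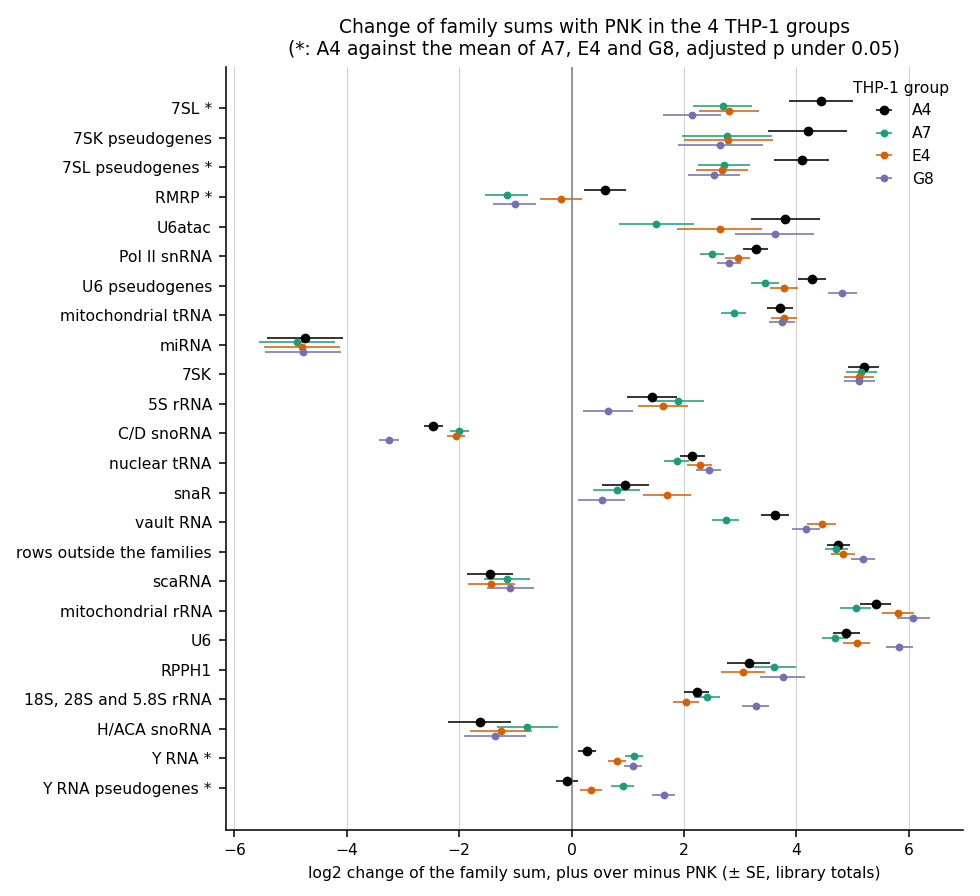
Log2 change of each family sum, plus over minus PNK by library totals with SE (x axis), in A4 (black), A7, E4 and G8; a star marks families whose change in A4 differs from the mean of the other groups at an adjusted p under 0.05. Y RNA and its pseudogenes lie lower in A4 (0.27 and -0.08) and 7SL, its pseudogenes and RMRP higher (4.44, 4.10 and 0.60). Families without a star can also spread between groups, as vault RNA does, from 2.74 in A7 to 4.45 in E4. The points of 7SK lie between 5.11 and 5.20.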

How the data were processed

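The files hold whole-number read counts per annotated feature, deposited by the authors with no normalization. Per the submitters' processing notes, Trim Galore, FastQC, Bowtie2 2.3.5.1, SAMtools 1.9, deepTools 3.2.1 and bedtools 2.28.0 were used with GRCh38. No source used here says how multiple alignments were treated. All 224 antisense rows that span a small RNA held no fewer reads than it, so the counts ignore strand. Near-identical copies share reads.

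A set of rows without overlap was used, in which small RNA rows share at most 5 bases. The 6 libraries were fitted alone with edgeR 4.0.16 in R 4.3.3 (limma 3.58.1, filterByExpr, normalization factors of 1), and 24 THP-1 libraries together for the test across groups. Features tested held 99.2% to 99.9% of counts. Family, isotype and gene sums were fitted likewise. Ratios within a library were compared with an exact permutation test (Python 3.11.15, SciPy 1.17.1). The con samples, the POLR3G-ASO samples and the HEK293T libraries are not analysed here.

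Named features are the small RNA polymerase III and minor spliceosome genes, and per class the 3 most abundant features and the 2 largest rises and falls with no overlap between arms, at or above median abundance. Across groups, they are the 5 largest differences in each direction. SNORD26, SNORD77, SNORD22, SNORD118, SNORD3A, SNORD13, MIRLET7G, MIRLET7A3, MIR363, MIR19B1, MIR4485 and SNORD141A were named after their values were seen, as ends or exceptions of lists. The members, lists and tests were chosen with earlier results of these data known. Alternatives were TMM, DESeq2 1.42.0 size factors and test, miRNA factors, every deposited row, no filter on low counts, the replicate number as a block and left-out libraries. Leaving out library 3 in both arms was added after the data were seen. PCR reads are not independent molecules. Some sequences are not reported here.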

Additional observations from a re-analysis of the deposited data

Results flagged for a closer look

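The results below were picked out because the change with PNK in A4 differed from the mean change in A7, E4 and G8 in edgeR's test of that difference. The values are differences in log2 change. Among families they were 7SL at 1.9, 7SL pseudogenes at 1.45, RMRP at 1.38, Y RNA at -0.74 and Y RNA pseudogenes at -1.04. Without A4 plus PNK library 2 the differences of 7SL, its pseudogenes and RMRP were 0.21, 0.13 and 0.81, with edgeR adjusted p of 0.741, 0.741 and 0.452. These 3 calls were also lost without any 1 of the A4 minus PNK libraries, with adjusted p of 0.0636 to 0.132, and those of 7SL and its pseudogenes with the replicate block. The Y RNA call was lost without A4 minus PNK library 3 (-0.61, edgeR adjusted p = 0.062), while the Y RNA pseudogenes passed with each A4 library left out. Against A7 and E4 only, all 5 families missed the threshold, with edgeR adjusted p of 0.0521 to 0.0819.

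Among features with a more positive change in A4, tRNA-Val-CAC-7-1 differed by 4.98, tRNA-iMet-CAT-1-6 copy 3 by 4.97, tRNA-Val-AAC-5-1 by 3.87, tRNA-Lys-CTT-11-1 by 3.65 and the U1 row U1_snRNA_URS0000308A28 by 3.64. Without A4 plus PNK library 2 the last 4 were at 2.26, 1.99, 1.67 and 1.59 with no call, and without A4 minus PNK library 1 they had none either. With each A4 library left out tRNA-Val-CAC-7-1 kept its call, with edgeR adjusted p up to 0.0395. Among features with a more negative change, lnc-ZCCHC13-13 differed by -4.17, lnc-TMEM129-1 by -3.88, HSALNG0034917 by -3.65, lnc-ZNF721-3 by -3.54 and lnc-PRDM9-16 by -3.52. Without PNK each of these rows had at most 0.590 CPM in any library of A4, A7, E4 or G8, near the floor. With PNK the mean of lnc-ZNF721-3 was 8.82 CPM in A4, against 9.47, 9.89 and 9.79 CPM in A7, E4 and G8. Without PNK its mean was 0.348 CPM in A4, against 0.0268, 0 and 0.0597 CPM. None of these 5 passed without A4 plus PNK library 2, with edgeR adjusted p of 0.0602 to 0.135. Each also failed without at least 1 A4 minus PNK library, with adjusted p up to 0.225. Against A7 and E4 only, lnc-TMEM129-1 and HSALNG0034917 had adjusted p = 0.136 while lnc-PRDM9-16 had 0.0714 and the U1 row 0.0769. The row lnc-ZCCHC13-13 had 3.42, 2.53 and 2.42 CPM in A4 with PNK and 0.148, 0.182 and 0.363 CPM in A4 without it, against 14.2, 17.2 and 17.9 CPM in A7 with PNK and 0, 0 and 0.0805 CPM in A7 without it.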

How the results depend on the processing

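Same-numbered arms deviated with correlations of 0.046, 0.0657 and 0.21. The libraries numbered 3 correlated best with each other. Minus PNK library 2 correlated best with plus PNK library 2, but plus PNK library 2 did so with minus PNK library 1 (0.0981). These small values do not decide whether libraries 1 and 2 are paired, and the main fit took no pairing. With the replicate number as a block 6683 features, 21 families, 58 sums and 59 named features passed and no direction turned, and 3 families and 83 features differed across groups; the families that no longer did were 7SL and its pseudogenes. The block gave H/ACA snoRNA -1.43 with edgeR adjusted p = 0.00623. Features called numbered 6731 of 6985 tested in the main analysis and 5904 of 6985 in the DESeq2 test. They numbered 35180 of 35717 with every deposited row and 16071 of 36161 when low counts were not filtered out. Without the filter the share of tested features that passed was thus lower than in the main analysis. Across groups, 5 families and 44 features differed in the main analysis. Families numbered 0 against A7 and E4 only, 3 with DESeq2 size factors, 0 with miRNA factors and 2 without G8 libraries 1 and 2. Features numbered 22 against A7 and E4 only, 97 with miRNA factors, 120 with no filter and 141 without those G8 libraries. Leaving out each A4 library in turn gave 7072 to 7788 features, 16 to 20 families, 51 to 58 sums, 55 to 59 named features, 5 to 6 ratios without overlap, and across groups 1 to 5 families and 1 to 92 features. Without a library, Y RNA pseudogenes turned to 0.08 and 0.04, and VTRNA1-3 to 0.28 and 0.25, none of them called; the ranges were -0.22 to 0.08 and -0.93 to 0.28. The cause of these moves was not tested. 

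Most turns of sign came with another scaling. Calls lost with the direction kept numbered 14 with TMM factors, 13 with DESeq2 size factors, 8 with miRNA factors, 4 with every deposited row and 4 in the DESeq2 test. The numbers below are log2 changes of plus over minus PNK that took the other sign than by library totals. With TMM factors, the log2 change turned for 18S, 28S and 5.8S rRNA -0.97, 5S rRNA -1.75, RMRP -2.59, RPPH1 -0.03, Y RNA -2.94, nuclear tRNA -1.06, snaR -2.25, 28S rRNA -0.71 and 5.8S rRNA -2.47. It also turned for tRNA Gly -2.63, tRNA Leu -1.21, tRNA Val -0.0016, tRNA Glu -0.04, tRNA SeC -0.28, MT-TI -1.99, MT-TF -0.53, RNY3 -2.27 and RNY4 -2.63. It was likewise turned for RNY5 -2.49, VTRNA1-1 -1.72, VTRNA1-2 -1.86, SNORD118 -1.67, SNORD22 -0.90, SNORD3A -1.43, SNORD3C -0.25, SCARNA16 -0.84 and RNU5B-1 -1.33. With DESeq2 size factors, the log2 change turned for 18S, 28S and 5.8S rRNA -0.24, 5S rRNA -1.09, RMRP -1.97, Y RNA -2.18, nuclear tRNA -0.31, snaR -1.54, 5.8S rRNA -1.70, tRNA Gly -1.93 and tRNA Leu -0.45. It also turned for MT-TI -1.25, RNY3 -1.51, RNY4 -1.87, RNY5 -1.79, VTRNA1-1 -0.95, VTRNA1-2 -1.10, SNORD118 -0.91, SNORD22 -0.15 and SNORD3A -0.87. It was likewise turned for SCARNA16 -0.08 and RNU5B-1 -0.66. With miRNA factors, the log2 change turned for C/D snoRNA 2.37, H/ACA snoRNA 3.13, Y RNA pseudogenes 4.76, miRNA 0.09, scaRNA 3.34, tRNA Ser 3.33, tRNA Arg 4.09, tRNA Lys 4.16 and tRNA His 4.76. It also turned for RNY1 4.55, VTRNA1-3 4.87, RNU7-1 4.19, MIR92A1 0.50, MIR155 0.21, MIR223 0.14, SNORD44 2.67, SNORD49A 2.69 and SNORD81 2.11. It was likewise turned for SNORD74 1.33, SNORD135 1.03, SNORD13 3.23, SNORA18 2.06, SNORA2C 1.66, SNORA57 1.13, SCARNA20 2.34, SCARNA15 0.55 and tRNA-Ser-TGA-1-1 0.84. It turned too for tRNA-Arg-CCT-1-1 copy 2 2.34. With every deposited row counted, the log2 change turned for Y RNA pseudogenes 1.32, other -0.10, tRNA Arg 0.61, tRNA Lys 0.70, tRNA His 1.29, RNY1 1.11, VTRNA1-3 1.38 and RNU7-1 0.69. Without library 3 in both arms, the log2 change turned for tRNA His 0.0078 and VTRNA1-3 0.23. In the DESeq2 test, the log2 change turned for RNY3 -2.07, RNY4 -2.44, RNY5 -2.35, VTRNA1-1 -1.52, VTRNA1-2 -1.67, RMRP -2.53, SNORD118 -1.48, SNORD22 -0.71 and SNORD3A -1.41. It also turned for SNORD3C -0.17, SCARNA16 -0.64 and RNU5B-1 -1.22. Relations within a library, such as miRNA over C/D snoRNA, do not depend on the scaling.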
